A study of Mus musculus with 8 samples.

Results

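Cd274 encodes PD-L1, a cell-surface protein of the B7 family, and the array carried 1 probe for it (ILMN_1226800) among 25697 probes, which makes it 1 of 10703 genes measured. The probe was chosen because the platform's probe table gives it the symbol Cd274, and the gene itself was chosen by its measured signal, which differed between the groups and follows that of interferon-induced genes, so its own levels are given as a description with no test. RNA came from the hypothalamus of male mice of 12 to 15 weeks, whose strain the labels give only as mixed. The 3 groups were saline controls (replicates 4 and 5), mice made diabetic with streptozotocin (STZ, a toxin of pancreatic beta cells, injected into the peritoneum; replicates 1, 2 and 3) and STZ-diabetic mice with a continuous central infusion of leptin, the fat-cell hormone (replicates 6, 7 and 8). Each sample was hybridised to 1 Illumina MouseRef-8 v2 bead array. The labels do not say whether an array held RNA of a single animal, so errors and p-values cover the variation among these arrays, which may be partly technical. No group was given leptin without STZ.

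PD-L1 binds the receptor PD-1, encoded by Pdcd1, on activated T cells and dampens their response, and it is a target of cancer immunotherapy. Its gene is switched on by many cell types on exposure to interferons, above all interferon gamma, whose receptor works through the kinases JAK1 and JAK2 and induces the transcription factor IRF1. In the brain it has been described on microglia, endothelium and astrocytes under inflammation, and it is low in healthy tissue.

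Because Cd274 and a group of interferon-induced genes moved together, as described below, the sequences in front of 4 of them are shown. They are RefSeq windows of build GRCm38.p6, all on the plus strand, and each gives the 250 bases before an annotated transcript start, 5′ to 3′. Capitals mark every match, on either strand, to the interferon regulatory factor motif GAAANNGAAA, the STAT motif TTCNNNGAA or the NF-kB motif GGGNNTTTCC.
Cd274 at chr19:29367188-29367437: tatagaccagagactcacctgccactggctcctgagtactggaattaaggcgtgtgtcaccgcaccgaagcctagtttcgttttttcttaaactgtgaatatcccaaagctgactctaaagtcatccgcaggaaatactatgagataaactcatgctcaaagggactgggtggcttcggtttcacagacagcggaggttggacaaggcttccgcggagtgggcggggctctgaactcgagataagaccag
Irf1 at chr11:53769764-53770013: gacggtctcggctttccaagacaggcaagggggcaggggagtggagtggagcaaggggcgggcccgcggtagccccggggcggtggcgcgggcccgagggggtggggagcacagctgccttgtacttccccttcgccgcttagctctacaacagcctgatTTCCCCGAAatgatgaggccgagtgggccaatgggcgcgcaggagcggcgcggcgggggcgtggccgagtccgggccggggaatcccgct
Igtp at chr11:58199306-58199555: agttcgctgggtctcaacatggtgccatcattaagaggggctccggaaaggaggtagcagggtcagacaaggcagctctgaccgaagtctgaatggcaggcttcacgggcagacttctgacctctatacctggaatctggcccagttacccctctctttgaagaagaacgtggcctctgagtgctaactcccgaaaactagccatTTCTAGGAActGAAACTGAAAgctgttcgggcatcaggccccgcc
Gbp7 at chr3:142530086-142530335: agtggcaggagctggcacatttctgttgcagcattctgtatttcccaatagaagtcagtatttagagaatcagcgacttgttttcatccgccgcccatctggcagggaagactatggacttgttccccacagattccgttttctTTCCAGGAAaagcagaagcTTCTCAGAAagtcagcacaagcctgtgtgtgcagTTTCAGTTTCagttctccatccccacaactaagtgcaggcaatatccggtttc

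The Cd274 window held none of the 3 letter patterns, which says only that these letters are not in this stretch. In the Irf1 window the STAT pattern lay at -90 to -82, counted from the transcript start. In the Igtp window the STAT pattern lay at -45 to -37 and the interferon regulatory factor pattern at -34 to -25. The Gbp7 window held the STAT pattern at -106 to -98 and -87 to -79 and the interferon regulatory factor pattern at -53 to -44. None of the matches shown overlapped another. Over all 32851 mouse windows of 300 bases (250 before and 50 after the start), 3.44% held the interferon regulatory factor pattern, 8.3% the STAT pattern and 1.63% the NF-kB pattern. Of the 12 genes whose signal followed that of Cd274 most closely, 8 had such a window, and 3 of these 8 held the interferon regulatory factor pattern, 3 the STAT pattern and 0 the NF-kB pattern. The 3 with the STAT pattern are those shown above, so they do not stand for the 12. The windows of Tap1, Ifi47, Top2a and Csf2ra held no match, and neither did a second window of Irf1. A match is a description of letters, not of a site that is used.

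Cd274 stood far higher in STZ than in saline, and most of that difference was absent with leptin. The raw intensity, as deposited and before any correction, was 253.6 and 266.3 in the saline arrays. It was 3081.1, 3382.9 and 2679 in the STZ arrays. With leptin it was 515.2, 332.1 and 484.4 in replicates 6, 7 and 8. Every STZ array lay above every leptin array, and every leptin array lay above both saline arrays. The probe was detected on all 8 arrays, with a detection p-value under 0.05 on each.

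After background correction and quantile normalization the log2 intensity of Cd274 was 7.53 and 7.62 in saline, with a mean of 7.57 ± 0.0614 (SD, n = 2). In STZ it was 11.55, 11.68 and 11.4, with a mean of 11.54 ± 0.137 (SD, n = 3). With leptin it was 8.93, 8.07 and 8.61, with a mean of 8.54 ± 0.435 (SD, n = 3). The 3 STZ arrays thus kept close together, whereas the leptin arrays spread over 0.86 log2 units, with replicate 7 nearest to saline. STZ exceeded saline by 3.97 ± 0.23 log2 units (limma standard error), a 15.7-fold difference. Leptin-infused STZ mice lay below STZ by 3.01 ± 0.21 log2 units, which makes STZ 8.04-fold higher, and the fitted difference was -3.01. They lay above saline by 0.96 ± 0.23 log2 units, or 1.95-fold. The STZ and leptin groups were separated by 2.47 log2 units between their nearest arrays. The leptin and saline groups were separated by 0.45, less than the range of 0.86 within the leptin group, so these neighbours in the order of levels lie close relative to the spread of the leptin arrays. With leptin, 24.3% of the log2 difference between STZ and saline was left.

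The raw intensities gave smaller folds, 11.7 for STZ over saline, 6.87 for STZ over leptin and 1.71 for leptin over saline, and they still contain the array background. Without background subtraction, on the authors' log2 table, STZ minus saline was 3.53. Among the 15494 probes kept (those detected at a p-value under 0.05 in 2 or more arrays), 56 had a larger difference than Cd274 between STZ and saline and 31 fell further with leptin. The residual standard deviation of the Cd274 probe was 0.29 log2 units, against a median of 0.21 over the kept probes, and the leptin arrays gave most of it. In bulk tissue, more cells that express a gene and more RNA of that gene per cell cannot be told apart, and this holds for each difference described here.

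**Figure D1:**
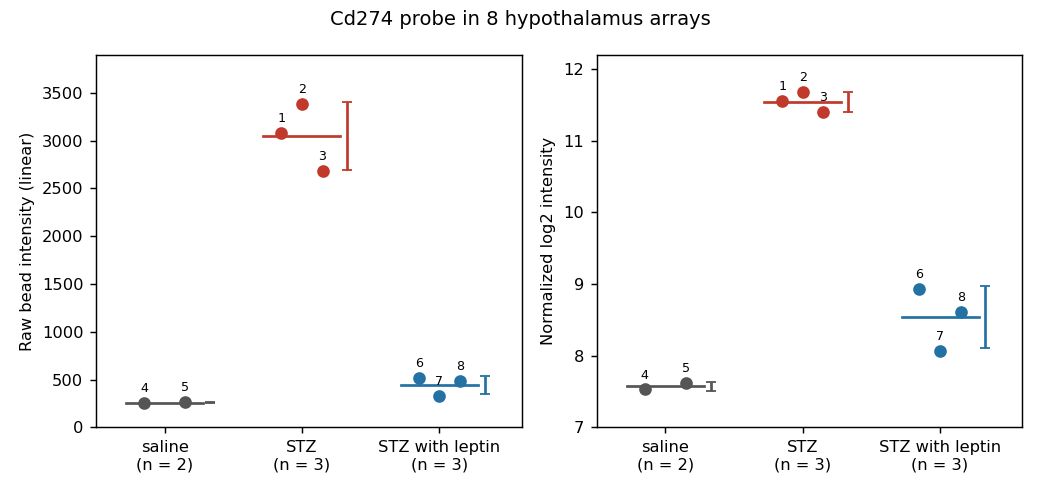
Cd274 signal on each of the 8 arrays, as deposited raw intensity (left, linear axis) and as background-corrected, quantile-normalized log2 intensity (right), by group. Points are arrays and bars are group means with the SD; STZ arrays lie between 11.4 and 11.68 log2 units, leptin arrays between 8.07 and 8.93 and saline arrays at 7.53 and 7.62.

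The arrays were of similar brightness, with a median raw intensity of 117.2 to 127.5 and with 53 to 57.5 percent of probes detected. Some arrays stood apart for reasons other than their group. The summed signal of 5 pituitary markers ranged from 215.8 to 76910 within STZ, with the high value in replicate 2, and that of 7 choroid plexus markers from 1811 to 32220. Without STZ replicate 2 the STZ minus saline difference of Cd274 was 3.92. STZ replicate 3 carries the description number 1, as STZ replicate 1 does, although its title says STZ, and without it the difference was 4.05. STZ replicate 1 was lower than the other STZ arrays for several inflammatory genes described below, and without it the difference was 3.99. None of these arrays therefore decided the level of Cd274.

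The genes whose log2 signal most resembled that of Cd274 over the 8 arrays included several interferon-induced ones. Likeness was measured by Pearson's r against 10702 other measured genes, each by its brightest kept probe. Since the 8 points fall into 3 groups that differ in both genes, r mostly reflects the group means, and it is given as a description only. The 12 closest genes had r between 0.988 and 0.998, and 8 of the 12 stood on the lists of interferon signalling and interferon-induced genes used here, which held 84 of the 10702 genes (0.785%). That count is no test. Cd274 was chosen as a gene that follows interferon-induced ones, and the lists were made with earlier results of these data known. In all 122 genes had r above 0.95 and 28 had r above 0.98.

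Irf1, the interferon-induced transcription factor that acts on the Cd274 gene, came first with r = 0.998. Its log2 intensity was 9.12 and 9.19 in saline. It was 12.67, 12.92 and 12.61 in STZ and 10.11, 9.55 and 10.12 with leptin. The 3 groups did not overlap, STZ lay 3.58 ± 0.20 above saline, and leptin replicate 7 was again the lowest of its group. Irf1 had 5 kept probes, whose r with Cd274 ran from 0.922 to 0.998. Nlrc5, the transactivator of MHC class I genes, had r = 0.99. It was undetected on both saline arrays and at least 3.98-fold higher in STZ.

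Among the antigen-presentation genes, Tap1 (r = 0.994) and Tap2 (r = 0.991) encode the paired chains of the transporter that loads peptides for MHC class I. Tap2 read 8.8 and 8.55 in saline, 11.43, 11.44 and 11.01 in STZ, and 9.3, 8.77 and 9.1 with leptin. Its leptin arrays reached down to the saline level, with replicate 7 below the higher saline array. Tap1 was undetected in saline and at least 6.85-fold higher in STZ.

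The interferon-induced GTPases Igtp (r = 0.993), Gbp7 (r = 0.992) and Ifi47 (r = 0.989) act against intracellular pathogens. Igtp read 6.84 and 6.92 in saline, 12.76, 12.92 and 12.66 in STZ, and 9.45, 8.47 and 8.88 with leptin. Its STZ minus saline difference was 5.90 ± 0.25, and 34.8% of it was left with leptin, the highest share among the 12. Gbp7 read 5.21 and 5.27 in saline, 8.24, 8.97 and 8.48 in STZ, and 6.27, 5.49 and 5.78 with leptin. Ifi47 lay 5.31 ± 0.24 above saline in STZ, after Igtp the largest difference of the 12. Ddx58, which encodes the RNA sensor RIG-I (r = 0.992), was undetected in saline and at least 2.10-fold higher in STZ.

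The remaining 4 followers stood on none of the lists. Arhgap9, a GTPase-activating protein of blood cells, had r = 0.996 and was detected only on the 3 STZ arrays, at least 1.75-fold above saline. Hcar2, the receptor for nicotinate and the ketone body beta-hydroxybutyrate, had r = 0.989. It read 4.8 and 5.67 in saline, 9.03, 9.59 and 9.16 in STZ, and 6.23, 5.71 and 6.38 with leptin. The STZ arrays of Hcar2 stood clear of all others, and the lowest leptin array lay just above the higher saline array. Top2a, a DNA topoisomerase of dividing cells, had r = 0.989 and was likewise detected only in STZ, at least 1.73-fold above saline. Csf2ra, a subunit of the receptor for the growth factor GM-CSF, had r = 0.988 with a small difference of 0.82 ± 0.13 log2 units.

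Over these 12 genes 14.6% to 34.8% of the STZ minus saline difference was left with leptin, with a median of 21.6%, beside 24.3% for Cd274. In 11 of the 12 leptin replicate 7 was the lowest leptin array, as it was for Cd274. Over all measured genes other than Cd274 that share was 31.9%. Within groups, as deviations from the group means, r with Cd274 was 0.444 to 0.97, with a median of 0.796. The median over all measured genes other than Cd274 was -0.019. Over the 5 arrays without the STZ group, r was 0.855 to 0.988. The highest value was that of Top2a, which was undetected on all 5, as was Arhgap9 (0.965). Nlrc5 (0.877) was detected on 1 of them. The r of these genes here rests largely on signal below detection. These likenesses are partly built in, since the genes were chosen by r over the same arrays, and they are no test. Undetected on both saline arrays were 5 of the 12. Which genes ranked among the first 12 depended on the measure: ranked by Spearman's rank correlation, 3 of the 12 remained, and ranked by the within-group r, 1 remained.

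**Figure D2:**
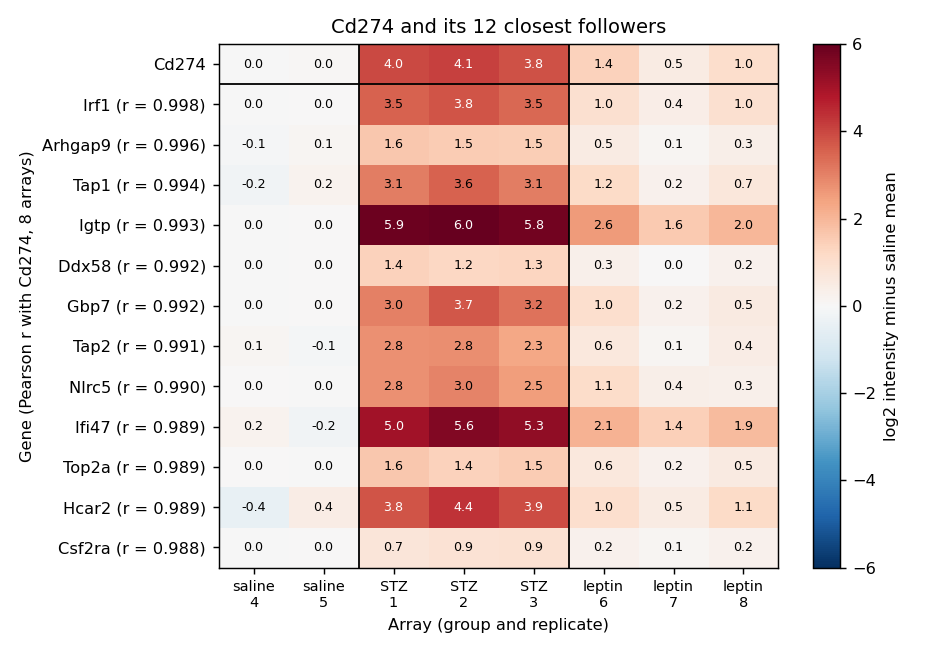
Cd274 and the 12 genes with the highest Pearson r, as log2 intensity on each array minus the mean of the 2 saline arrays (colour and printed value), with groups set off by vertical lines. All 12 are highest in the 3 STZ arrays, and in 11 of the 12 leptin replicate 7 is the lowest leptin array. Over all measured genes other than Cd274 that share is 31.9%.

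Far fewer genes ran against Cd274, with 8 below r = -0.95. Slit2, an axon guidance ligand, had r = -0.975. It read 8.66 and 8.77 in saline, 8.11, 8.19 and 8.16 in STZ, and 8.41, 8.63 and 8.54 with leptin. Its range was small, with a difference of -0.56 between STZ and saline. Gkn3, a secreted gastrokine found in arterial endothelium of the mouse brain, had r = -0.971 and a larger range. It read 7.28 and 7.14 in saline, 5.82, 5.84 and 5.9 in STZ, and 7.13, 7.46 and 7.01 with leptin. The leptin arrays of Gkn3 overlapped the saline arrays, and STZ stood apart from both. The next were Il17d (r = -0.967), a cytokine gene, Fam120b (r = -0.963) and B3gat3 (r = -0.963), a glycosyltransferase gene, and second probes of Il17d and B3gat3 gave r of -0.846 and -0.625.

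Cd274's partners in the checkpoint family did not move as a block with it. For orientation, 664 of the 15494 kept probes (4.29%) passed limma's test of STZ minus saline at a Benjamini-Hochberg adjusted p of 0.05, 3.98% higher and 0.31% lower. STZ with leptin minus STZ had 5.62% passing, 2.16% higher and 3.45% lower. STZ with leptin minus saline had 2.03%, 1.62% higher and 0.407% lower. The first 2 comparisons share the STZ arrays, so a high reading in STZ enters both with opposite sign. A list of 40 other checkpoint and B7 genes had 36 with a probe, of which 27 were measured, and 8 of the 9 that were not kept were undetected on every array. Of the 27, 6 were higher in STZ than in saline, 5 were lower with leptin than in STZ and 1, also higher in STZ, was higher with leptin than in saline, while 0 moved the other way in each comparison (at unadjusted p under 0.05, 13, 16 and 7 in either direction). At that unadjusted threshold 14.4%, 19.4% and 11.9% of all kept probes passed in the 3 comparisons, in the order given. Of the 27, 7 would not have been kept without the STZ arrays, among them 1 of the 5 that were lower with leptin. Without STZ replicate 1 the counts in STZ and with leptin were 11 and 10, and without either saline array the first was 3. The median difference of the 27 was 0.47 between STZ and saline, beside -0.09 over all kept probes, and -0.56 between leptin and STZ, beside 0.03.

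The receptor of PD-L1 lay near the detection limit. Pdcd1, encoding PD-1, read 5.34 and 5.57 in saline, 5.01, 4.77 and 5.49 in STZ, and 4.9, 4.9 and 4.58 with leptin, and it was detected on 3 of the 8 arrays. Its difference between STZ and saline was -0.37 ± 0.22 (limma, adjusted p = 0.52), and its groups overlapped. Pdcd1lg2, encoding the second PD-1 ligand PD-L2, was detected on 0 arrays, with raw intensities of 76.4 to 94.9. Cd80, which binds PD-L1 as well as CD28 and CTLA-4, was undetected in saline and detected in all STZ arrays and 1 leptin array. It was thus kept through STZ, so its difference of 0.47 ± 0.19 is given without a test. Cd276, another B7 ligand, differed by 0.38 ± 0.20 (adjusted p = 0.44). No probe was named Vsir, and it was not analysed here.

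Cd86, the costimulatory B7 ligand of CD28 and CTLA-4, was the clearest riser of the list. It read 6.44 and 6.19 in saline, 8.49, 8.65 and 8.53 in STZ, and 7.66, 7.58 and 7.56 with leptin. Its 3 groups did not overlap. STZ exceeded saline by 2.24 ± 0.14 (limma, adjusted p = 5.1e-05), with leptin it differed from STZ by -0.95 ± 0.13 (adjusted p = 0.0029), and with leptin it exceeded saline by 1.29 (adjusted p = 0.0019). With leptin 57.4% of the STZ difference of Cd86 was left, beside 24.3% for Cd274.

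The inhibitory receptor TIM-3 of T cells and myeloid cells, encoded by Havcr2, rose by 1.87 ± 0.21 in STZ (limma, adjusted p = 0.00093) and its ligand Lgals9 by 1.59 ± 0.21 (adjusted p = 0.0023). Havcr2 read 5.26 and 5.77 in saline, 7.3, 7.71 and 7.15 in STZ, and 6.57, 6.46 and 6.37 with leptin. Its 3 groups were separate, and with leptin it differed from STZ by -0.92 (adjusted p = 0.024), whereas Lgals9 differed by -0.65 (adjusted p = 0.088). Cd40, a receptor of antigen-presenting cells, read 6.59 and 6.87 in saline, 7.89, 8.91 and 8.62 in STZ, and 6.9, 6.3 and 6.86 with leptin. It rose by 1.74 in STZ (adjusted p = 0.011), and the leptin arrays overlapped the saline arrays after a fall of 1.79 (a difference of -1.79, adjusted p = 0.0058). Nectin2, a ligand of TIGIT and related receptors, followed Cd274 most closely within the list, with r = 0.957. It rose by 0.84 in STZ (adjusted p = 0.0085) and differed by -0.76 with leptin (adjusted p = 0.0084).

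Tnfrsf4, the costimulatory receptor OX40, differed by 2.07 ± 0.46 in STZ (limma, adjusted p = 0.038). Its STZ arrays spread from 6.1 to 7.76. Tnfrsf9, the receptor 4-1BB, was detected only in STZ, at least 1.40-fold above leptin, and no test is given because it was kept through the STZ arrays alone. Without saline replicate 4 the STZ calls of Cd40, Nectin2 and Tnfrsf4 were lost (adjusted p = 0.14, 0.13 and 0.3), and without saline replicate 5 they were lost too (adjusted p = 0.068, 0.061 and 0.16), that of Nectin2 also with the mean of its probes (adjusted p = 0.055) and that of Tnfrsf4 on the authors' log2 table (adjusted p = 0.076). The leptin call of Havcr2 was lost when any single leptin array was left out (adjusted p = 0.058 to 0.079).

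**Figure D3:**
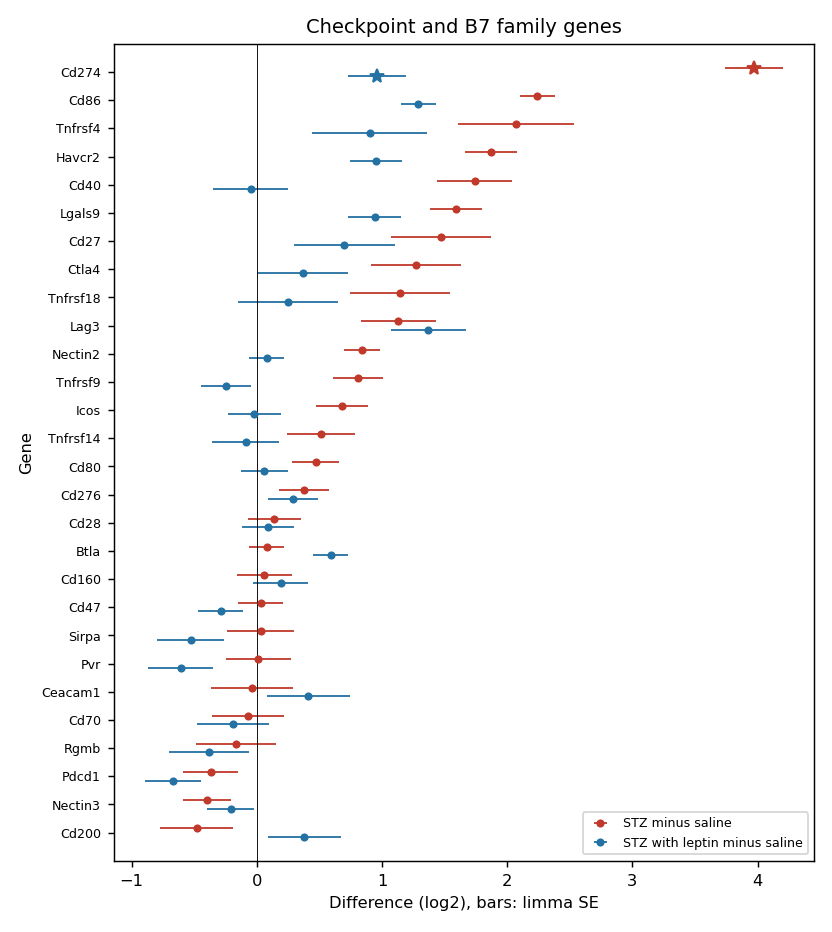
Differences of Cd274 (stars) and the 27 other measured checkpoint and B7 genes in STZ minus saline (red) and STZ with leptin minus saline (blue), in log2 units with limma standard errors. Cd274 lies at 3.97 in STZ, beyond Cd86 at 2.24, while with leptin Cd86 (1.29) lies above Cd274 (0.96).

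The route from interferon receptors to the nucleus is a known input to the Cd274 gene, and its part in these differences was not tested. It was represented by 36 listed genes. Of these listed genes 34 had a probe and 30 were measured. Of the 30, 12 were higher in STZ than in saline, 13 were lower with leptin than in STZ and 4, all also higher in STZ, were higher with leptin than in saline, while 0 moved the other way in each comparison (18, 19 and 8 at unadjusted p under 0.05 in either direction). Among all kept probes the shares were 3.98%, 3.45% and 1.62% (14.4%, 19.4% and 11.9% unadjusted in either direction). The medians of the 30 were 0.58, -0.63 and 0.20. These counts include Irf1 and Nlrc5, which are also followers, and Nlrc5 and Ciita, which would not have been kept without the STZ arrays. The 4 calls against saline (Irf8, Irf9, Socs3 and Ptpn6) were all lost without saline replicate 4 (limma, adjusted p = 0.33, 0.17, 0.22 and 0.059). Without STZ replicate 2 or 3 the 13 became 8.

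Interferon gamma itself (Ifng) was undetected in saline, detected on the 3 STZ arrays and on 2 leptin arrays. It read 5.56, 6.71 and 6.29 in STZ and 5.64, 4.51 and 5.24 with leptin, close to the detection limit. Its STZ difference of 1.34 ± 0.38 missed the threshold (limma, adjusted p = 0.11). That difference passed with array weights (adjusted p = 0.013) and without STZ replicate 1 (1.64, adjusted p = 0.028). In these 2 settings it was also lower with leptin than in STZ (adjusted p = 0.035 and 0.039). The receptor chains Ifngr1 and Ifngr2 differed by 0.58 ± 0.18 (adjusted p = 0.15) and 0.22 ± 0.21 (adjusted p = 0.72). The kinases Jak1 and Jak2 differed by -0.23 ± 0.21 (adjusted p = 0.68) and 0.43 ± 0.17 (adjusted p = 0.27). None of these 5 upstream genes passed STZ minus saline in the main fit, although a missed threshold does not show that they were equal.

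Stat2, a transcription factor of type I interferon signalling, read 6.16 and 6.52 in saline, 7.32, 7.98 and 7.46 in STZ, and 6.58, 6.59 and 6.17 with leptin. It rose by 1.25 ± 0.23 in STZ (limma, adjusted p = 0.017) and its leptin arrays overlapped the saline arrays. Stat3, which carries the signal of leptin and of interleukins, rose by 1.08 ± 0.22 (adjusted p = 0.028). Irf9, which joins STAT2 on DNA, read 7.63 and 7.44 in saline, 9.8, 9.67 and 9.44 in STZ, and 8.39, 8.26 and 8.36 with leptin. Its groups did not overlap, and it rose by 2.10 ± 0.15 (adjusted p = 0.00011). Irf8, a factor of microglia and other myeloid cells, rose by 2.47 ± 0.19 (adjusted p = 0.00014). Irf2, which competes with IRF1, differed by 0.52 ± 0.15 (adjusted p = 0.12). Ciita, the transactivator of MHC class II genes, was detected only in STZ. It lay at least 2.56-fold above saline and at least 2.54-fold above leptin, with no test since it was kept through the STZ arrays alone.

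The inhibitors Socs3 and Ptpn6, which restrain JAK signalling, were higher in STZ, and the share of the difference left with leptin was above the 24.3% of Cd274. Socs3 read 6.59 and 6.74 in saline, 9.68, 11.08 and 10.64 in STZ, and 8.68, 8.62 and 8.43 with leptin. Its groups were separate, it rose by 3.8 ± 0.34 (limma, adjusted p = 0.00026), and 50.3% of that was left with leptin. Ptpn6, the phosphatase SHP-1, rose by 2.90 ± 0.22 (adjusted p = 0.00013), with 61.9% left. Socs1, another inhibitor, was detected on 2 STZ arrays only and differed by 0.57. The STZ calls of Stat2 and Stat3 were lost without saline replicate 4 (adjusted p = 0.2 and 0.14) and without saline replicate 5 (adjusted p = 0.063 and 0.25).

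**Figure D4:**
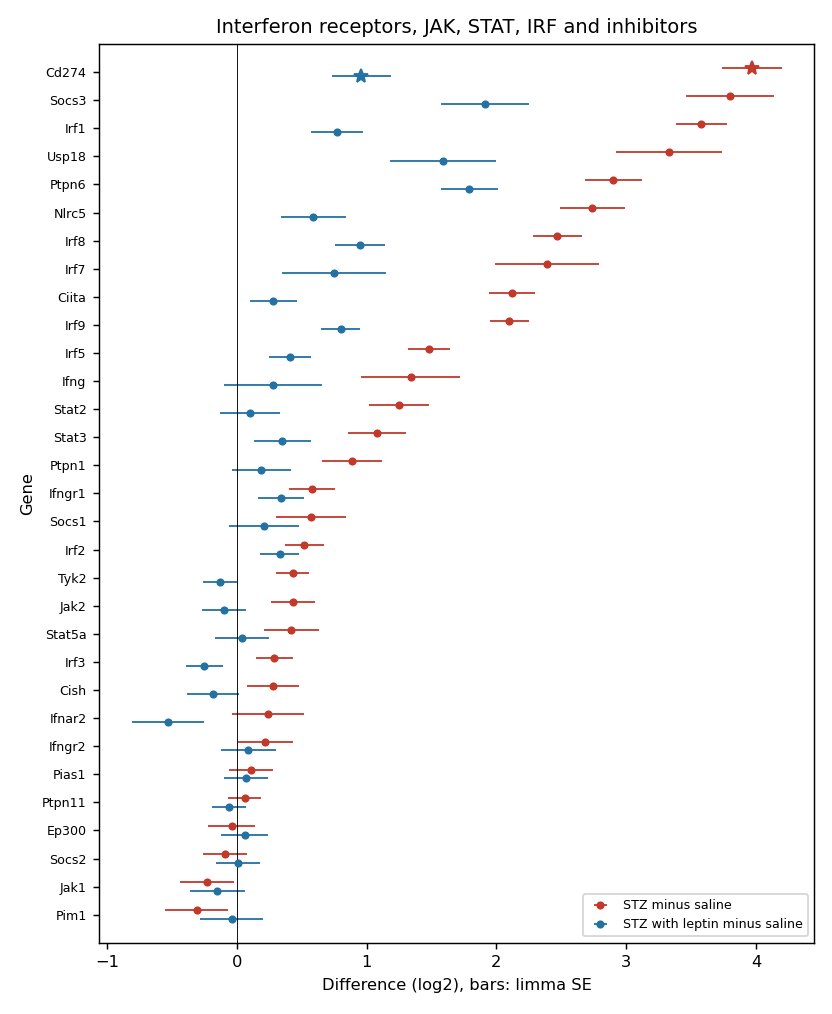
Differences of Cd274 (stars) and the 30 measured genes of the interferon receptor, JAK, STAT and IRF list in STZ minus saline (red) and STZ with leptin minus saline (blue), in log2 units with limma standard errors. Irf1 at 3.58 and 0.77 lies nearest to Cd274 at 3.97 and 0.96, whereas Socs3 stays at 1.91 with leptin and Jak1, Ifngr2 and Socs1 lie below 1 in both comparisons.

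Most of the listed genes induced by interferon gamma were higher in STZ. Of 33 measured (37 listed), 25 were higher in STZ, 23 were lower with leptin than in STZ and 2 higher, and 10 were higher with leptin than in saline, 8 of them also higher in STZ. Beside these 4 counts, the shares of all kept probes were 3.98%, 3.45%, 2.16% and 1.62%. The 25 and the 23 include 5 followers, chosen for their likeness to Cd274, and 1 gene that would not have been kept without the STZ arrays. Without saline replicate 4 the 10 became 5. The median was 2.73 for STZ against saline and -2.20 for leptin against STZ. Apart from the followers Igtp and Ifi47, the lowest p-values were those of further GTPases. Irgm2 rose by 4.91 (limma, adjusted p = 2.1e-05), Gbp3 by 3.98 (adjusted p = 2.2e-05) and Gbp2 by 4.94 (adjusted p = 2.9e-05). All of these were lower with leptin than in STZ, Gbp3 by a difference of -2.52 and Gbp2 of -3.07 (adjusted p = 6.4e-05 and 0.00011). The 2 genes that were higher with leptin were the MHC class II genes H2-Aa (3.56) and H2-Eb1 (2.79), named after their values were seen. H2-Aa read 4.6, 4.89 and 5.63 in STZ and 9.07, 7.48 and 9.26 with leptin, so its order of groups was unlike that of Cd274.

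Of 21 measured genes induced by type I interferon (30 listed), 15 were higher in STZ, 8 were lower with leptin than in STZ, and 2, Oasl2 and Ifit3, were higher with leptin than in saline and also higher in STZ. The shares of all kept probes were 3.98%, 3.45% and 1.62%. The 15 and the 8 include the follower Ddx58 and 1 gene that would not have been kept without the STZ arrays. Both calls against saline were lost without saline replicate 4 (limma, adjusted p = 0.19 and 0.062), and without either saline array the 15 became 7. Parp14, a poly-ADP-ribosyltransferase, rose by 3.21 (limma, adjusted p = 7.5e-05) and differed by -2.27 with leptin (adjusted p = 0.0003). The antiviral genes Oasl2 and Ifit3 rose by 3.88 and 3.14 (adjusted p = 0.00026 and 0.00051), and Ifit3 kept 78.8% of its difference with leptin. The RNA sensor Dhx58 rose by 1.52 (adjusted p = 0.00072) and kept 8.09%. Cd274, at 24.3%, lay between these members.

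Further known inputs to the Cd274 gene, such as Toll-like receptors, interleukins and NF-kB, had 37 of 53 listed genes measured. Of these, 14 were higher in STZ, 4 were lower and 1 higher with leptin than in STZ, and 3 were higher with leptin than in saline, 2 of them (Tlr2 and Ebi3) also higher in STZ. Among all kept probes these shares were 3.98%, 3.45%, 2.16% and 1.62%, in the order given. The 14 include 3 genes that would not have been kept without the STZ arrays. Without saline replicate 4 the 14 became 3 and the calls of Tlr2 and Ebi3 against saline were lost (limma, adjusted p = 0.052 and 0.21), and without STZ replicate 1 the 4 became 10. Tlr2, a receptor for bacterial lipoproteins, rose by 3.52 ± 0.25 (limma, adjusted p = 8.8e-05), and 58.8% of that was left with leptin. Its adaptor Myd88 rose by 1.95 (adjusted p = 0.0005) with 35.4% left, and the interleukin-10 receptor chain Il10ra by 1.84 (adjusted p = 0.00052). Ebi3, a subunit of interleukin-27, rose by 2.17 (adjusted p = 0.0043) with 87.9% left. The cytokine gene Il1b was undetected in saline and at least 26.8-fold higher in STZ (adjusted p = 0.0052). Its STZ arrays read 7.86, 11.19 and 10.76, so replicate 1 lay at the level of the leptin arrays (7.89, 7.34 and 7.66), unlike Cd274, for which replicate 1 lay between the other STZ arrays. The STZ calls of Ebi3 and Il1b were lost without saline replicate 4 (adjusted p = 0.068 and 0.058). Il6st, the signalling chain of the interleukin-6 receptor, was the gene higher with leptin (2.66, adjusted p = 8.5e-05), named after its value was seen.

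Genes that act on the PD-L1 protein rather than on its transcript were also listed. Of 21 listed genes for its stability, glycosylation and degradation 17 were measured, and 0 passed in STZ minus saline by limma, with 4 at unadjusted p under 0.05, beside 4.29% and 14.4% of all kept probes. Cmtm6, which protects PD-L1 from degradation in lysosomes, read 8.66 and 8.77 in saline, 9.31, 9.28 and 9.25 in STZ, and 8.68, 8.85 and 8.93 with leptin. The STZ arrays of Cmtm6 lay above all others, with a difference of 0.56 ± 0.14 that missed the threshold (adjusted p = 0.06). It passed in several alternatives, among them the authors' log2 table (adjusted p = 0.024) and cyclic loess (adjusted p = 0.028). Stt3a, a subunit of the enzyme that attaches N-glycans, was higher with leptin than in STZ by 0.85 (adjusted p = 0.0036) and than in saline by 0.67 (adjusted p = 0.037), the latter lost without saline replicate 4 (adjusted p = 0.35). It was named after its values were seen.

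**Figure D5:**
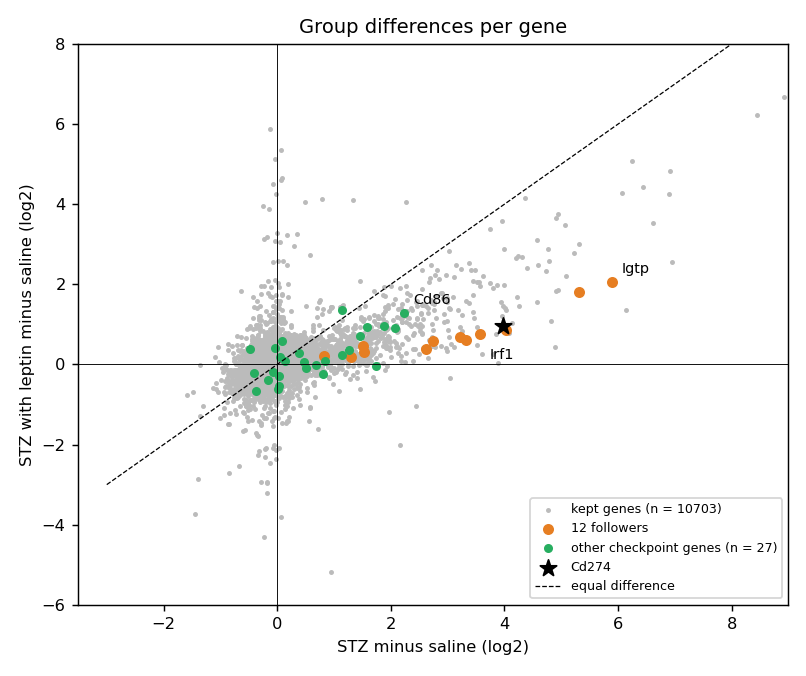
Each measured gene by its difference STZ minus saline (x axis) and STZ with leptin minus saline (y axis), in log2 units, with Cd274 as a star, its 12 followers in orange and the other 27 measured checkpoint genes in green. Both axes share the saline arrays, and the dashed line marks equal differences; Cd274 lies at 3.97 and 0.96, and Cd86 at 2.24 and 1.29 lies closer to the line.

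Many markers of microglia and macrophages, which can carry PD-L1, moved with the groups too. Of 20 measured markers of microglia and macrophages (24 listed), 12 were higher in STZ, 5 were lower with leptin than in STZ, and 8 were higher and 1 lower with leptin than in saline. Among all kept probes the shares were 3.98%, 3.45%, 1.62% and 0.407%. The summed signal of the 20 markers, on the linear scale of normalized intensity, was 8226 to 8433 in saline. It was 30380 to 32840 in STZ and 18440 to 21220 with leptin, so the groups had the same order as for Cd274. Without saline replicate 4 the 8 became 4, and without STZ replicate 1 the 5 became 10. The share left with leptin was different. The macrophage marker Adgre1 read 6.24 and 6.33 in saline, 10.03, 10.28 and 10.42 in STZ, and 9.63, 9.74 and 10.24 with leptin. Its leptin arrays overlapped the STZ arrays, and 90.6% of its STZ difference of 3.95 (limma, adjusted p = 2.9e-05) was left. The Fc receptor-like gene Fcrls kept 90.2% and the complement genes C1qb and C1qc kept 92% and 75%. P2ry12, a purinergic receptor of resting microglia, was the marker lower with leptin than in saline (-2.45, adjusted p = 0.00057), named after its value was seen. Whether the change in these markers has a part in that of Cd274 was not tested.

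T and NK cell markers, from the cells that carry PD-1, were near the detection limit. Of 17 measured (26 listed), 3 were higher in STZ, 1 was lower with leptin than in STZ, and 0 passed in leptin against saline by limma (5 at unadjusted p under 0.05). Of all kept probes 3.98%, 3.45% and 2.03% did so (11.9% unadjusted in leptin against saline). The 1 and the 0 are near these shares. Without Thy1, which neurons also express, the 16 remaining markers summed to 651.2 to 688.5 in saline, 908.3 to 1435 in STZ and 890.3 to 1083 with leptin. The defining markers Cd4 and Cd8a were undetected on all arrays. Cd6 and Cd8b1 were undetected on both saline arrays and at least 2.89-fold and 2.01-fold higher in STZ. Their differences were 1.82 and 1.54 (limma, adjusted p = 0.0048 and 0.039). Cd3e rose by 0.91 (adjusted p = 0.043), whereas Cd3d (1.95, adjusted p = 0.11) and Cd3g (1.87, adjusted p = 0.055) missed the threshold. All 3 of these calls were lost without saline replicate 4 (adjusted p = 0.055, 0.29 and 0.37) and without saline replicate 5 (adjusted p = 0.059, 0.18 and 0.15). Without STZ replicate 1 the 3 and the 1 became 8 and 4. The part of T cells in the Cd274 signal was not tested.

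Endothelial markers (14 measured) had 0 passing in STZ minus saline by limma, with 3 at unadjusted p under 0.05, and their summed signal was 11280 to 12470 in saline, 12650 to 15050 in STZ and 11010 to 12370 with leptin. With leptin the transporter gene Slco1a4 was higher than in STZ by 1.53 (limma, adjusted p = 0.00085) and Slco1c1 differed by -1.12 (adjusted p = 0.008). Of 11 measured astrocyte markers 1 was higher in STZ, Gfap, the intermediate filament of reactive astrocytes (1.63, adjusted p = 0.021, and 0.16 without either saline array). Gfap differed from STZ by -1.32 with leptin (adjusted p = 0.031), a call lost when any STZ or saline array was left out (adjusted p = 0.055 to 0.1), and S100b was higher by 0.89 (adjusted p = 0.043), a call lost when any STZ or leptin array was left out (adjusted p = 0.068 to 0.14). The B cell marker Cd79b was undetected on both saline arrays and at least 2.49-fold higher in STZ (a difference of 1.70, adjusted p = 0.004). It kept its full difference with leptin, at 1.82 and at least 2.71-fold above saline. Its STZ call was lost without saline replicate 4, and its call with leptin was lost without either saline array. Markers of dendritic cells (4 measured), neutrophils and blood (8), oligodendrocytes (7), neurons (11), hypothalamic neurons (9), choroid plexus (7) and pituitary (5) had 0 passing in STZ minus saline, with 1, 4, 1, 3, 2, 0 and 0 at unadjusted p under 0.05. Of all kept probes 4.29% passed and 14.4% did unadjusted, so 0 among so few markers says little. The neutrophil and blood markers had a median difference of 0.86 and summed to 6539 to 41510 in STZ, beside 10030 to 15250 in saline. Without STZ replicate 1, 3 of them were higher in STZ than in saline and 2 were lower with leptin than in STZ. With leptin some of these cell type lists moved. Summed choroid plexus signal was 15290 to 31730 in saline, 1811 to 32220 in STZ and 1977 to 5260 with leptin. The median difference of these 7 markers between leptin and saline was -2.32, with 6 at unadjusted p under 0.05 and 0 passing, and 5 were lower with leptin than in STZ once STZ replicate 1 was left out. Of the 9 hypothalamic neuropeptide and marker genes 4 were higher with leptin than in STZ, Pmch (0.88), Hcrt (1.20), Cartpt (1.28) and Gal (1.41). All 4 calls were lost without leptin replicate 6 (limma, adjusted p = 0.056 to 0.13). The summed signal of the 9 was 22880 to 28480 in saline, 21040 to 27950 in STZ and 31030 to 42680 with leptin. The oligodendrocyte gene Opalin was higher with leptin than in STZ by 1.23 (limma, adjusted p = 0.011). The genes of this paragraph called only with leptin were named after their values were seen. The parts of these cell types in the Cd274 signal were not tested.

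None of the measured genes around Cd274 on chromosome 19 had an STZ minus saline difference near its size. Of the 10 protein-coding genes on each side in RefSeq order, 15 were measured, and 0 passed in any of the 3 comparisons by limma (1, 4 and 0 at unadjusted p under 0.05). Of all kept probes 4.29%, 5.62% and 2.03% passed, and 14.4%, 19.4% and 11.9% did at the unadjusted threshold. A count of 0 among so few genes is near the former shares. Their STZ minus saline differences ran from -0.59 to 0.87, beside 3.97 for Cd274. The nearest measured genes on the left were Plgrkt (0.48), Rln1 (-0.55) and Insl6 (0.87), followed by Jak2, and on the right Ermp1 (-0.23), Ranbp6 (-0.59) and Il33 (-0.23). Jak2 had the direction of Cd274, with 0.43 in STZ minus saline and -0.53 in leptin minus STZ (limma, adjusted p = 0.27 and 0.08). Its leptin difference passed in some alternatives, among them the authors' log2 table (adjusted p = 0.048) and the mean of its probes (adjusted p = 0.039). Pdcd1lg2, the neighbour directly on the right, was the probe detected on 0 arrays.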

How the data were processed

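The authors deposited a table of bead-summary intensity per probe and array, with no background subtraction or normalization between arrays, and, per the file headers, a detection p-value beside each intensity. They also deposited a processed table of log2 values, whose columns share a median of 6.9 and 1 set of values, as after quantile normalization, and which served as an alternative. The sources used here do not name the tool behind that table. Intensities were processed with neqc of limma 3.58.1 (R 4.3.3), which infers the negative control signal from detection p-values, uses an offset of 16, applies quantile normalization and ends in log2 values. Of 25697 probes, 15494 were kept, those detected at a p-value under 0.05 in 2 or more arrays. The probe table gave 1 symbol to 23978 probes and none to 1719.

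A model of 3 group means was fitted to all 8 arrays (lmFit, eBayes; 5 residual and 3.93 prior degrees of freedom), with Benjamini-Hochberg adjustment over the kept probes, a threshold of 0.05 and moderated standard errors. The code was tested on simulated data. Each gene takes the kept probe with the highest mean. For a probe undetected throughout the dimmer group the fold is a lower bound, with that group set on each array to the dimmest detected probe's value, or to its own if higher. The number of arrays limits the precision. Summed marker signals are sums of normalized intensity.

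Cd274 and the gene lists were chosen with earlier results of these data known. Named were Cd274, 20 fixed genes of its pathway, checkpoint genes that passed any comparison, at most 5 passing members of each other list by lowest p, 12 genes of highest and 5 of lowest r, the 3 nearest measured genes on each side, at most 4 passing members of each cell type list, and the defining T cell markers; names outside this rule are marked in the text. Alternatives were other background corrections, normalizations, filters, variance models, probe rules and leaving out each array. Deviations of same-numbered samples of different groups, by their description numbers, had r of -0.218 to 0.092 over 6 pairs. Over 15 pairs with unlike numbers r was -0.315 to 0.315. The deviations of the 2 saline arrays mirror each other and STZ replicates 1 and 3 share a number, so this check cannot decide on pairing. The numbers were not taken as pairs in the main fit, and a fit with them as a block is given below.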

Additional observations from a re-analysis of the deposited data

How the results depend on the processing

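Of 219 recomputed values, 180 stayed within the spread between replicates or, for counts, within 1.5 times. The other 39, mostly counts, went beyond that. The 3 Cd274 differences kept their direction in every alternative, whereas the counts have no direction that could change. The difference of Cd274 between STZ and saline was 3.53 on the authors' log2 table, 3.53 without background correction and 3.63 with normexp. Leaving out 1 array at a time gave 3.92 to 4.05, -3.2 to -2.76 for leptin minus STZ and 0.77 to 1.19 for leptin minus saline, with both ends of the last set by leptin replicates 6 and 7. Probes passing STZ minus saline (664) numbered 332 under the strict filter (detection p-value under 0.01 on all arrays), 1659 with array weights and 277 to 1032 with an array left out. Leptin minus STZ (870) had 552, 1859 and 484 to 1234, and leptin minus saline (314) had 183, 714 and 111 to 426; the lowest counts came without saline replicate 4 or STZ replicate 3 and the highest without STZ replicate 1. Checkpoint genes higher in STZ (6) numbered 13 with array weights and 3 to 11 with an array left out, and those lower with leptin (5) numbered 3 under the strict filter, 11 with array weights and 4 to 10. Interferon-route genes higher in STZ (12) numbered 9 to 14 and those lower with leptin (13) 8 to 15. The strict filter removes probes and leaves the values of the others unchanged, so ranks by r could hardly fall under it. Of the 12 followers, 4 passed it and all 4 remained among the first 12, which is thus no check. By Spearman's rank correlation 3 remained, by within-group r 1, and with an array left out 5 to 10. The samples share only a number: with the description number as a replicate block, 336 and 474 probes, 3 checkpoint genes higher in STZ, 8 interferon-route genes lower with leptin and 6 followers were obtained. The cause of these shifts was not tested, apart from fewer probes or arrays entering the fit.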
